A study of Homo sapiens with 18 samples.

Results

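Interferon-stimulated genes were followed in 2 uveal melanoma cell lines exposed to inhibitors of the histone methyltransferases EHMT2 (also called G9a) and EHMT1. The group held 49 genes of the 26475 in the deposited table, taken by symbol from a list of known interferon targets that included BST2, and all 49 symbols were found. Mel92.1 and MP41 cells, each an established line and so a single source of cells, received DMSO, 1 μM UNC0642 or 1 μM A366 for 48 h, with 3 replicates in each of the 6 groups and 18 libraries in all. Both compounds are inhibitors of EHMT2 and EHMT1, and no interferon, immune cell or genetic change was added to any of these groups. BST2 was among the genes the study picked from these same libraries, so the direction of its change is not independent evidence here.

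Interferons are secreted proteins that bind receptors on the cell surface and activate the kinases JAK1 and TYK2. In the type I pathway the kinases phosphorylate STAT2, which acts with IRF9 in a complex that binds the interferon-stimulated response element (ISRE) in the promoters of its targets. The targets include sensors of double-stranded RNA, proteins that hold back viruses at membranes, the ubiquitin-like protein ISG15 with its enzymes, and the pathway's own transcription factors. EHMT2 and EHMT1 place mono- and dimethyl marks on lysine 9 of histone H3, which are marks of silent chromatin.

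The libraries held between 23601156 and 62941462 counts (median 41955693), and 4 ribosomal RNA genes took between 3.31% and 32.8% of them. Mel92.1 UNC0642 replicate 1 stood apart, with the lowest total and the highest ribosomal share, and the biological coefficient of variation in Mel92.1 was 0.175 with it and 0.119 without it. The libraries labelled A366 replicates 2 and 3 of each line held RNA of the other line. By 27 genes detected in Mel92.1 alone and 33 detected in MP41 alone under DMSO, these 4 libraries stood at 96.5% to 112% of the DMSO level of the line opposite to the label and at no more than 0.0677% of the labelled line. They were therefore placed under the line whose genes they held, as the study's own per-replicate values list does, and the A366 results are also given with the labels as deposited and without these 4 libraries. Values of an A366 group are listed with the library labelled for that line first and the 2 libraries labelled as the other line after it. Of 9 melanocytic markers, 8 in Mel92.1 and 9 in MP41 reached 1 CPM (counts scaled to a common library total). Among 7 leukocyte markers, CD68 alone carried the signal (25.9 to 182 CPM), and the other 6 summed to at most 2.25 CPM in any library. The summed endothelial markers were at 1.33 to 1.86 CPM with DMSO and 3.38 to 4.11 CPM with A366 in MP41. VWF carried this rise, from 0.196 to 0.488 CPM with DMSO to 2.2 to 2.88 CPM with A366. The other endothelial markers summed to 1.12 to 1.37 CPM and 1.18 to 1.23 CPM. Summed fibroblast markers lay between 23.1 CPM (MP41 with A366) and 53.7 CPM (Mel92.1 with DMSO). The part of these markers in the results was not tested.

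An ISRE-like sequence, searched on both strands as GAAANNGAAA within 250 bases before to 50 bases after the start, was present in 26 of the 40 members (65.0%) that have an entry in the RefSeq promoter table (GRCh38.p14). It was present in 3.57% of the 35116 promoters of that table and, counted per gene as for the members, in 4.38% of its 27305 genes. A GAS-like sequence (TTCNNNGAA, both strands), named for the interferon gamma-activated site, was present in 11 of 40 members (27.5%) and in 7.66% of all promoters or 9.38% of all genes, and 7 members held both. IRF7, IFITM2, DHX58, OAS2, OASL, IFIT2, MX2, USP18 and TRIM22 had no entry. The windows of 30 bases that hold the matches are shown for BST2, for 5 members called after A366 in MP41 (IFI6, ISG20, LGALS3BP, SAMD9 and IFIT3) and for ISG15, IFI44L and IFIH1, with the bases of the ISRE-like match in capitals. The windows were picked as examples, and other members that changed more are not shown.
BST2: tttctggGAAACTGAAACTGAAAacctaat
ISG15: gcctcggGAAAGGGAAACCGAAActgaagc
IFI6: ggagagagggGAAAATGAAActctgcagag
ISG20: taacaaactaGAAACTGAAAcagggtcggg
LGALS3BP: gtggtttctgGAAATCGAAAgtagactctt
SAMD9: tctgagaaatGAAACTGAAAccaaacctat
IFIT3: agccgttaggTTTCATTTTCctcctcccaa
IFI44L: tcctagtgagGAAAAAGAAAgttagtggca
IFIH1: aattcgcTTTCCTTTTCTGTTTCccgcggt

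The BST2 window lies at chr19:17405738-17405767 on the minus strand, and its 2 overlapping matches cover the bases from 130 to 115 before the start of BST2. A GAS-like match begins 136 bases before the start and overlaps them, and another begins 58 bases before it. The same bases lie within exons of BISPR, a long noncoding RNA read from the opposite strand, and within an untranslated region of 2 MVB12A transcripts. The ISG15 window (chr1:1013377-1013406, plus strand) also holds overlapping matches, as does the IFIH1 window (chr2:162318821-162318850, minus strand), where the match reads on the other strand. The windows of IFI6 (chr1:27672329-27672358, minus), ISG20 (chr15:88638937-88638966, plus), LGALS3BP (chr17:78979962-78979991, minus), SAMD9 (chr7:93118096-93118125, minus), IFIT3 (chr10:89327831-89327860, plus, match on the other strand) and IFI44L (chr1:78620274-78620303, plus) hold a single match each and lie before the start of the gene. Outside these windows, IFI6, IFI44L, IFIT3 and IFIH1 have further ISRE-like matches in their promoter entries. Of the 16 members that rose after A366 in MP41, 6 of the 11 with an entry held the ISRE-like sequence, and of the 7 that fell, 5 of 7 did. The match was thus present in members that changed in either direction.

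With DMSO, the genes of the group spanned from no counts to a mean of 659 CPM in Mel92.1 and 756 CPM in MP41, and the 2 lines differed in most of them. Lengths are those of the longest annotated transcript of each gene. LGALS3BP, a secreted glycoprotein, was the highest member per length of transcript in both lines, at 274 CPM per kb in Mel92.1 and 315 CPM per kb in MP41. IFITM3, a membrane protein that blocks viral entry, followed at 183 and 141 CPM per kb. The third was IFITM2 in Mel92.1 (143 CPM per kb) and IFI35, a partner of NMI, in MP41 (53.4 CPM per kb). At the low end, XAF1 had 0 counts in all 6 DMSO libraries, where a count of 0 allows up to 0.0606 to 0.0791 CPM per library by counting error alone. The next lowest were CMPK2 (0 counts) and RSAD2 (0.00244 CPM per kb) in Mel92.1, and IFI44L (0.00123 CPM per kb) and EPSTI1 (0.00627 CPM per kb) in MP41. BST2, the membrane tether that holds budding virus at the cell surface, ranked 31 of the 49 in both lines.

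Between the lines, 33 of the 46 members tested differed with DMSO (edgeR quasi-likelihood test over all 15799 genes, adjusted p under 0.05), against 69.4% of all genes, so the share of the members was near that of the table. Of these, 9 were higher in Mel92.1 and 24 in MP41, while over all genes 34.5% were higher in Mel92.1 and 34.8% in MP41. On the scale of the 18-library fit, the DMSO libraries did not overlap for 12 members higher in Mel92.1 and 26 higher in MP41, and overlapped for 11. The share of all genes without overlap is not given for this comparison, so these counts are not a result about the members.

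IFI16, a nuclear DNA sensor, had the lowest p of the members in this comparison, with a mean level of 140 CPM in MP41 and 11.4 CPM in Mel92.1 and a log2 difference of -3.62 (SE 0.11, adjusted p = 2.17e-14). SAMD9 and SAMD9L, related antiviral proteins coded side by side, were also lower in Mel92.1, with log2 differences of -2.39 (SE 0.18) and -2.42 (SE 0.22). IFIH1 (also called MDA5), a sensor of long double-stranded RNA, differed by -2.23 (SE 0.22) and STAT2 by -0.88 (SE 0.07). For genes with few counts in a line, the ratio of counts describes the difference better than the fit. HERC6 had 581 counts in the MP41 DMSO libraries and 5 in Mel92.1, a ratio of 124 (95% exact binomial interval 52.7 to 382, counting error only). OAS1, which makes the messenger that activates RNase L, had 354 against 13 counts, a ratio of 29 (16.7 to 54.9), and OAS2 had 38 against 3, a ratio of 13.5 (4.27 to 68.2). CMPK2 had 42 counts in MP41 and none in Mel92.1, so it was at least 14.9-fold higher in MP41 against 3 counts over the group. Low counts of these genes thus fell mostly in Mel92.1.

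The opposite order held for a smaller set. IFI44L had 367 counts with DMSO in Mel92.1 and 1 in MP41, a ratio of 345 (61.5 to 1.37e+04). OAS3, the largest oligoadenylate synthetase, was higher in Mel92.1 by 1.59 (SE 0.16, adjusted p = 1.28e-07) and IFITM2 by 1.51 (SE 0.14, adjusted p = 2.22e-08) on the log2 scale. IFITM1 and IFITM2 overlap on the same strand in the annotation, so the split of reads between them is uncertain. TRIM21 (1.14), IRF1 (1.08), UBE2L6 (0.72), IFITM3 (0.37), TRIM25 (0.32) and IFI27 (2.05) completed the 9, all as log2 differences. IFI27 lost the call without Mel92.1 DMSO replicate 2, MP41 DMSO replicate 2 or MP41 DMSO replicate 3 (adjusted p 0.0608 to 0.0786). When the GC content and length of each gene entered the fit as an offset, IFITM3 had a value of -0.11 and lost the call. The Mel92.1 minus MP41 difference of BST2 was -1.03 on the log2 scale (SE 0.35, adjusted p = 0.0143), and it lost the call without Mel92.1 DMSO replicate 1 (-0.85, adjusted p = 0.0708) or MP41 DMSO replicate 1 (-0.83, adjusted p = 0.0711). These are bulk libraries, in which a change in the level per cell and a change in the share of cells that express a gene cannot be told apart.

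**Figure D1:**
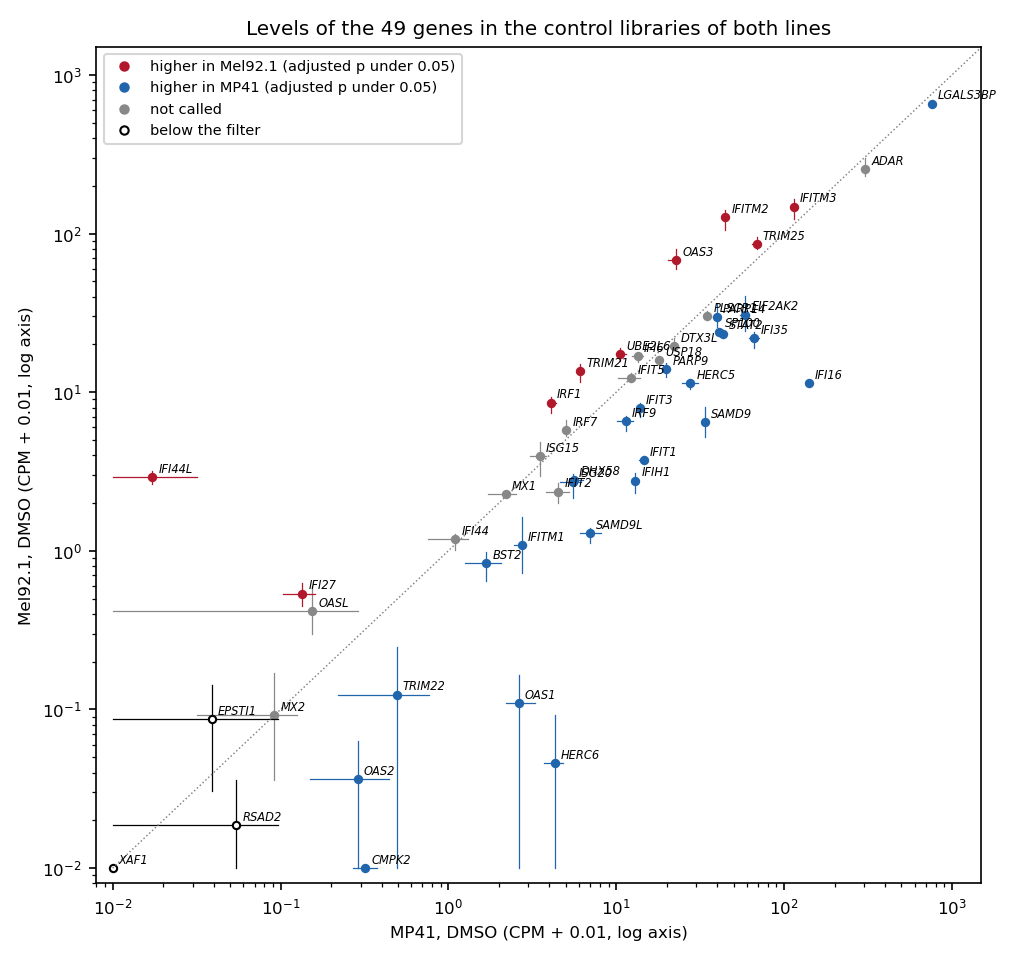
Mean level of each of the 49 genes in the DMSO libraries of Mel92.1 (vertical, CPM + 0.01, log axis) against MP41 (horizontal, CPM + 0.01, log axis), with bars from the lowest to the highest library and the dotted line marking equal levels. Members higher in MP41 (24 called) lie below the line and those higher in Mel92.1 (9 called) above it, with IFI44L, HERC6, CMPK2 and OAS1 farthest from it.

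BST2 had a higher mean with each inhibitor in each line, and it passed the test after A366 in MP41. In Mel92.1 its level was 0.587, 0.783 and 0.899 CPM with DMSO and 0.667, 1.99 and 1.42 CPM with UNC0642. The first UNC0642 value, from the library that stands apart, lay among the DMSO values, and the log2 fold change was 0.87 (SE 0.41, adjusted p = 0.525). With A366 the level was 2.08, 2.31 and 2.83 CPM, above all 3 DMSO values. The log2 fold change was 1.67 (SE 0.41, adjusted p = 0.288), and it passed the threshold without Mel92.1 UNC0642 replicate 1 (1.68, adjusted p = 0.0163), when only the 6 libraries compared were fitted (1.68, adjusted p = 0.0248), when all 18 were fitted together (1.67, adjusted p = 0.0233) and with DESeq2 (1.67, adjusted p = 0.00858).

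In MP41, BST2 was at 2.25, 1.88 and 1.35 CPM with DMSO and at 3.13, 3.54 and 2.35 CPM with UNC0642. These groups did not overlap, and the log2 fold change of 0.72 (SE 0.26, adjusted p = 0.425) did not pass the threshold. With A366 the level was 3.21, 2.92 and 4.77 CPM, again above every DMSO library, with a log2 fold change of 0.99 (SE 0.26, adjusted p = 0.00851). This call was lost with the labels as deposited (0.79, adjusted p = 0.0587), without the 4 relabelled libraries (0.81, adjusted p = 0.0881) and after the GC and length offset (0.47, adjusted p = 0.125). Across the 23 alternatives of each comparison with DMSO, the log2 fold change of BST2 stayed above 0 in all 23. It was called in 0 for UNC0642 in either line, in 5 for A366 in Mel92.1 and in 19 for A366 in MP41.

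**Figure D2:**
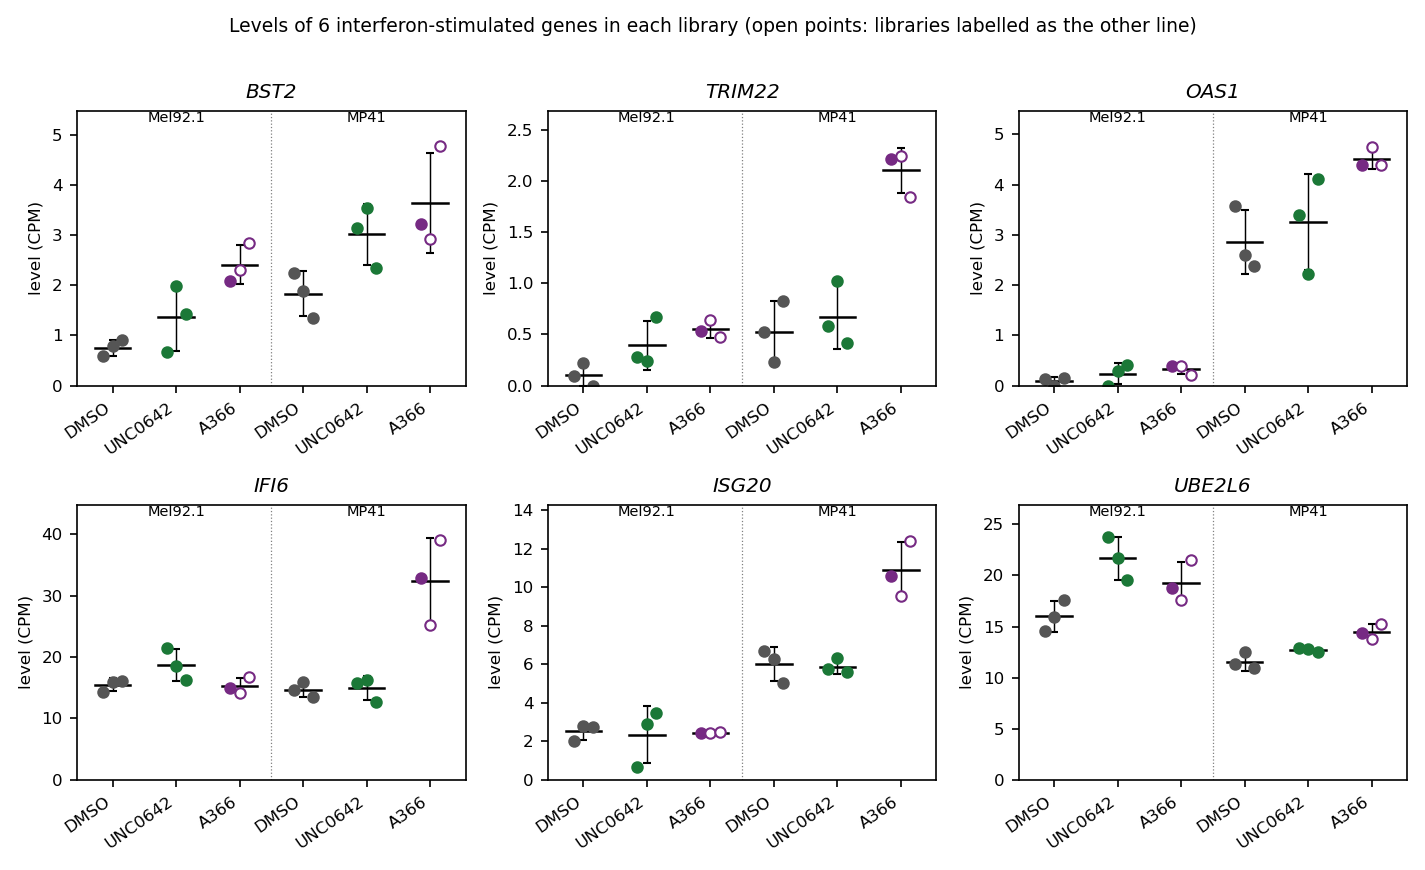
Level in CPM (vertical axes, from 0) of BST2, TRIM22, OAS1, IFI6, ISG20 and UBE2L6 in each of the 18 libraries, by line and treatment. Points are libraries, horizontal bars group means and vertical bars 1 SD (n = 3), and open points are libraries labelled as the other line. After A366 in MP41, IFI6 (25.2 to 39.1 CPM) and ISG20 (9.56 to 12.4 CPM) lie above all DMSO and UNC0642 libraries, whereas in Mel92.1 their A366 points overlap those of DMSO.

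The members as a group showed no called change after UNC0642 in Mel92.1. By the edgeR quasi-likelihood test 0 of the 42 tested passed, against 0.688% of all 14528 genes, and 4 had an unadjusted p under 0.05. DESeq2 called 4 (DHX58, IFI16, SP100 and UBE2L6), limma voom 2 and the fit of all 18 libraries 4. The share of all genes called by these alternatives is not given, so their counts are not a result about the members. The same holds for the count at an unadjusted p under 0.05. The median log2 fold change was -0.01 over the members and -0.02 over all genes. The UNC0642 and DMSO libraries did not overlap for 10 members (7 higher, 3 lower), against 15.4% of all genes tested. The members below the filter on low counts in this line were OAS2, MX2, RSAD2, CMPK2, HERC6, XAF1 and EPSTI1.

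The 6 members with the lowest p after UNC0642 in Mel92.1, none past the threshold, were IFI16, DHX58, UBE2L6, SP100, USP18 and IFITM1. IFI16 was at 9.95, 11.1 and 10.4 CPM with DMSO and at 21.1, 15.2 and 13.9 CPM with UNC0642, a log2 fold change of 0.67 (SE 0.15, adjusted p = 0.119) with no overlap. DHX58 (LGP2), a relative of the sensor IFIH1, was at 2.48, 2.57 and 2.67 CPM with DMSO and at 5.89, 3.86 and 4.30 CPM with UNC0642, and its log2 fold change was 0.86 (SE 0.22, adjusted p = 0.19). For both genes the highest value came from the library that stands apart, and without that library IFI16 was called (0.47, adjusted p = 0.0451). UBE2L6, the enzyme that carries ISG15 to its substrates, was at 14.6, 15.9 and 17.6 CPM with DMSO and at 23.8, 21.7 and 19.6 CPM with UNC0642 (log2 fold change 0.44, SE 0.12, adjusted p = 0.235). SP100, a component of nuclear bodies, was at 22.7, 20.8 and 23.1 CPM and then at 29, 25.6 and 27.4 CPM (0.30, SE 0.09, adjusted p = 0.245). Neither gene's groups overlapped. USP18, which removes ISG15 and restrains the receptor, was at 13.8, 15.5 and 14.6 CPM with DMSO and at 10.6, 13.6 and 11.9 CPM with UNC0642 (-0.28, SE 0.13, adjusted p = 0.503). IFITM1 was at 0.662, 0.832 and 1.49 CPM with DMSO and at 3.67, 1.64 and 1.15 CPM with UNC0642, and these groups overlapped (1.08, SE 0.50, adjusted p = 0.506).

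A366 in Mel92.1 likewise gave 0 called members of 42 by the edgeR quasi-likelihood test, against 0.213% of all genes, with 6 at an unadjusted p under 0.05. DESeq2, the fit of the 6 libraries and the fit of all 18 each called 2, namely BST2 and IFI16, and limma voom with sample weights called 17. The 0.213% is that of the main edgeR fit. The share of all genes called by these alternatives is not given, so the 17 are not a result about the members. The same holds for the count at an unadjusted p under 0.05. Without Mel92.1 UNC0642 replicate 1, which enters only through the shared estimate of the spread, BST2 and IFI16 were called. The replicates of A366 and DMSO did not overlap for 11 members (10 higher and 1, DHX58, lower), against 15.8% of all genes. The median log2 fold change was -0.01 over members and over all genes alike.

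BST2 had the lowest p here and IFI16 the next, at 16.3, 15.6 and 15.8 CPM with A366 against the 9.95 to 11.1 CPM of DMSO (log2 fold change 0.60, SE 0.15, adjusted p = 0.289). SP100 was at 26.0, 26.4 and 26.1 CPM (0.24, SE 0.09, adjusted p = 0.836) and UBE2L6 at 18.8, 17.6 and 21.5 CPM (0.27, SE 0.12, adjusted p = 1). TRIM22, a ubiquitin ligase that restrains retroviruses, was at 0.0946, 0.220 and 0 CPM with DMSO and at 0.538, 0.638 and 0.472 CPM with A366. Its log2 fold change of 2.37 (SE 0.88, adjusted p = 0.878) thus rests on few counts. SAMD9L was at 1.29, 1.27 and 1.02 CPM with DMSO and at 1.75, 2.53 and 1.57 CPM with A366 (0.71, SE 0.31, adjusted p = 1). None of these 6 passed the threshold, and UBE2L6 had a value of -0.13 with the labels as deposited.

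UNC0642 in MP41 gave 0 called members of 45 by the edgeR quasi-likelihood test, against 0.241% of all 14956 genes. At an unadjusted p under 0.05 there were 3, and DESeq2 and limma voom called 0. The share of all genes at that unadjusted threshold is not given, so the 3 are not a result about the members. The members below the filter in MP41 were RSAD2, IFI44L, XAF1 and EPSTI1. The median log2 fold change was 0.03 over the members and 0.0011 over all genes. The groups did not overlap for 8 members (3 higher, 5 lower), against 18.8% of all genes.

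STAT2 had the lowest p of this comparison, at 45, 49.3 and 46.9 CPM with DMSO and 41.3, 40.0 and 38.8 CPM with UNC0642 (log2 fold change -0.23, SE 0.07, adjusted p = 0.318). Its levels did not overlap and were lower in all 3 treated libraries. IFITM3 was at 127, 120 and 127 CPM with DMSO and at 113, 107 and 115 CPM with UNC0642 (-0.16, SE 0.07, adjusted p = 0.499). IFITM1 was at 3.08, 3.18 and 2.67 CPM and then at 2.58, 1.75 and 2.66 CPM (-0.36, SE 0.22, adjusted p = 0.713). OAS2 was at 0.285, 0.153 and 0.473 CPM with DMSO and at 0.875, 0.454 and 0.310 CPM with UNC0642 (0.84, SE 0.49, adjusted p = 0.695). MX1, a GTPase that traps viral nucleoproteins, was at 1.87, 2.78 and 2.53 CPM and then at 3.57, 2.38 and 3.21 CPM (0.35, SE 0.22, adjusted p = 0.728). OAS2 and MX1 overlapped between the groups, while IFITM1 and IFITM3 did not.

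A366 in MP41 was the comparison in which members were called. Of the 45 tested, 16 rose and 7 fell, 23 in all (51.1%). The background was close to this, since 46.0% of all 14956 genes were called, 22.5% up and 23.5% down, so the share of members is not a result about them. The members' median log2 fold change was 0.12, against 0.02 over all genes. The replicates did not overlap for 19 members higher and 9 lower, 28 in all, against 58.1% of all genes.

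Of the signalling factors, 3 of 4 rose. IRF7, the factor that amplifies type I interferon production, was at 5.62, 5.27 and 5.66 CPM with DMSO and at 9.70, 7.53 and 9.65 CPM with A366 (log2 fold change 0.70, SE 0.13, adjusted p = 0.00142). IRF9, the DNA-binding partner of STAT2, was at 11.1, 12.6 and 13.6 CPM and then at 16.7, 17.0 and 18.1 CPM (0.48, SE 0.16, adjusted p = 0.0276). IRF1 was at 4.32, 4.28 and 4.76 CPM and then at 5.86, 5.70 and 5.78 CPM (0.38, SE 0.14, adjusted p = 0.0461). The 3 factors did not overlap between the groups. STAT2 was at 46.0, 49.6 and 44.7 CPM with A366 (-0.01, SE 0.07, adjusted p = 0.921), overlapping its DMSO values. In Mel92.1 STAT2 was at 22.8, 20.2 and 21.8 CPM with DMSO, 20.9, 22.0 and 22.8 CPM with UNC0642 and 22.9, 24.4 and 24.1 CPM with A366. IRF7 was there at 4.92, 4.85 and 6.13 CPM with DMSO, 3.11, 5.40 and 3.70 CPM with UNC0642 and 5.47, 5.04 and 5.95 CPM with A366. Neither gene passed the test in Mel92.1. IRF9 in Mel92.1 was at 5.22, 6.51 and 6.37 CPM with DMSO, 2.11, 7.75 and 6.46 CPM with UNC0642 and 5.92, 5.8 and 6.87 CPM with A366. IRF1 was at 6.79, 8.62 and 8.33 CPM with DMSO, 12.4, 7.30 and 7.64 CPM with UNC0642 and 7.17, 7.25 and 8.01 CPM with A366. Apart from the UNC0642 replicate 1 values, these Mel92.1 levels lay close together, and none passed the test. In MP41 with UNC0642, IRF1 was at 4.67, 4.56 and 3.62 CPM, IRF7 at 5.73, 5.53 and 5.87 CPM and IRF9 at 13.6, 7.89 and 10.4 CPM, again without a call.

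Of the membrane restriction factors BST2, IFITM2 and IFITM3 rose and IFITM1 was not called. IFITM2 was at 48.5, 47.3 and 50.8 CPM with DMSO and at 60.3, 51.9 and 70.8 CPM with A366 (log2 fold change 0.32, SE 0.12, adjusted p = 0.0399). IFITM3 was at 145, 136 and 153 CPM with A366 (0.21, SE 0.07, adjusted p = 0.0198), above its 3 DMSO libraries. IFITM1 was at 2.55, 1.90 and 2.48 CPM with A366 (-0.37, SE 0.22, adjusted p = 0.185), below them. With UNC0642, IFITM2 was at 43.7, 37.2 and 48.8 CPM in MP41. In Mel92.1, IFITM2 was at 97, 125 and 129 CPM with DMSO, 132, 129 and 107 CPM with UNC0642 and 106, 103 and 127 CPM with A366, and IFITM3 was at 114, 143 and 151 CPM, then 107, 143 and 117 CPM and then 123, 117 and 129 CPM. IFITM1 with A366 was there at 1.25, 1.28 and 1.62 CPM. These Mel92.1 groups overlapped.

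Among the sensors and effectors of double-stranded RNA, DHX58, OAS1 and OAS2 rose and ADAR and EIF2AK2 fell. EIF2AK2 (PKR), the kinase that halts translation on double-stranded RNA, was at 65.0, 59.5 and 67.4 CPM with DMSO and at 43.6, 51.9 and 39.2 CPM with A366 (log2 fold change -0.51, SE 0.10, adjusted p = 0.00207). ADAR, which edits adenosine in double-stranded RNA, was at 345, 313 and 340 CPM and then at 232, 287 and 211 CPM (-0.45, SE 0.09, adjusted p = 0.00264). Both were lower in all 3 A366 libraries. OAS2 was at 1.48, 1.35 and 1.30 CPM with A366 against at most 0.473 CPM with DMSO (2.16, SE 0.48, adjusted p = 0.00341), OAS1 rose by 0.66 (SE 0.23, adjusted p = 0.0333) and DHX58 by 0.53 (SE 0.14, adjusted p = 0.00964). OAS1, OAS2 and OAS3 overlap a transcript of the opposite strand (AC004551.1), as PARP9 and DTX3L overlap each other. The methods of the study describe strand-specific libraries made with dUTP, but the strand setting of the counting is not given in the sources used here. OAS3 (-0.27), OASL (0.88) and IFIH1 (-0.12) were not called.

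Of the IFIT family, RNA-binding proteins that block translation of foreign RNA, IFIT3 rose and IFIT1 fell. IFIT1 was at 15, 16.4 and 16.6 CPM with DMSO, 16.7, 18.7 and 16.3 CPM with UNC0642 and 11.7, 14 and 12.7 CPM with A366 (log2 fold change for A366 -0.32, SE 0.10, adjusted p = 0.0189). IFIT3 was at 14.7, 14.6 and 15.9 CPM, then 17.6, 14.3 and 18.1 CPM and then 18.8, 18.8 and 19.1 CPM (0.33, SE 0.10, adjusted p = 0.0179). The pair thus moved apart after A366 in MP41 in the main fit, and each lost its call in 3 of 9 cases when 1 library was left out. Under the GC and length offset IFIT3 kept its call, while IFIT1 kept its direction but lost its call. With the labels as deposited IFIT1 kept its call and IFIT3 changed direction. IFIT2 was at 4.17, 5.76 and 4.85 CPM with DMSO, 4.42, 4.81 and 5.51 CPM with UNC0642 and 4.91, 4.78 and 4.47 CPM with A366. IFIT5 was at 15.3, 11.2 and 14 CPM, then 12.9, 15.2 and 12.3 CPM and then 12.8, 13.0 and 11 CPM. Neither was called. In Mel92.1 the IFIT genes were at 3.48, 3.21 and 3.6 CPM (IFIT1), 2.46, 2.20 and 1.82 CPM (IFIT2), 6.47, 7.59 and 7.86 CPM (IFIT3) and 12.2, 11.2 and 10.5 CPM (IFIT5) with DMSO. UNC0642 gave 6.89, 3.48 and 4.58 CPM for IFIT1, 0, 1.87 and 2.04 CPM for IFIT2, 3.89, 7.13 and 7.61 CPM for IFIT3 and 13.7, 10.3 and 11 CPM for IFIT5, and A366 gave 4.48, 4.52 and 3.80 CPM, 2.26, 1.73 and 1.89 CPM, 7.91, 7.69 and 8.80 CPM and 12.1, 13.1 and 11.2 CPM in the same order. The extreme values for IFIT1, IFIT2 and IFIT3 came from UNC0642 replicate 1, and no IFIT gene was called in this line.

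IFI6, a small membrane protein of the endoplasmic reticulum and mitochondria, had the lowest p of the members after A366 in MP41. It was at 14.6, 15.9 and 13.5 CPM with DMSO and at 32.9, 25.2 and 39.1 CPM with A366, a log2 fold change of 1.14 (SE 0.15, adjusted p = 0.000329). ISG20, an exonuclease that degrades single-stranded RNA, was at 6.71, 6.29 and 5.02 CPM and then at 10.6, 9.56 and 12.4 CPM (0.85, SE 0.14, adjusted p = 0.000901). SAMD9 was at 37.7, 36.2 and 37.1 CPM and then at 19.3, 26.7 and 15.8 CPM (-0.84, SE 0.15, adjusted p = 0.00103). All 3 had no overlap between groups. TRIM22 was at 0.522, 0.229 and 0.828 CPM with DMSO and 2.22, 2.25 and 1.85 CPM with A366 (1.99, SE 0.43, adjusted p = 0.00317). LGALS3BP (0.30), UBE2L6 (0.33) and IFI35 (0.44) also rose, and PARP14 (-0.39), IFI16 (-0.23) and PLSCR1 (-0.19) fell. ISG15 itself was at 3.37, 4.20 and 3.91 CPM with DMSO and 5.41, 4.19 and 5.60 CPM with A366 (0.41, SE 0.18, adjusted p = 0.0796) and was not called, nor were HERC5 (-0.14), HERC6 (-0.13), USP18 (-0.03), MX1 (0.45) or MX2 (1.84).

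When each of the 9 MP41 libraries was left out in turn, 13 of the 23 members kept their call each time, namely ADAR, BST2, DHX58, EIF2AK2, IFI16, IFI35, IFI6, IRF7, ISG20, LGALS3BP, OAS2, SAMD9 and TRIM22. The other 10 lost it at least once. IRF1 lost it without any of the 6 DMSO and A366 libraries (adjusted p 0.0644 to 0.125). IFITM2 lost it in 6 of 9 cases, OAS1 and PLSCR1 in 5, IRF9 and IFITM3 in 4, IFIT1 and IFIT3 in 3, UBE2L6 in 2 and PARP14 in 1. Their adjusted p then ranged up to 0.18 (IFITM2), and the direction of the 10 stayed as it was.

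**Figure D3:**
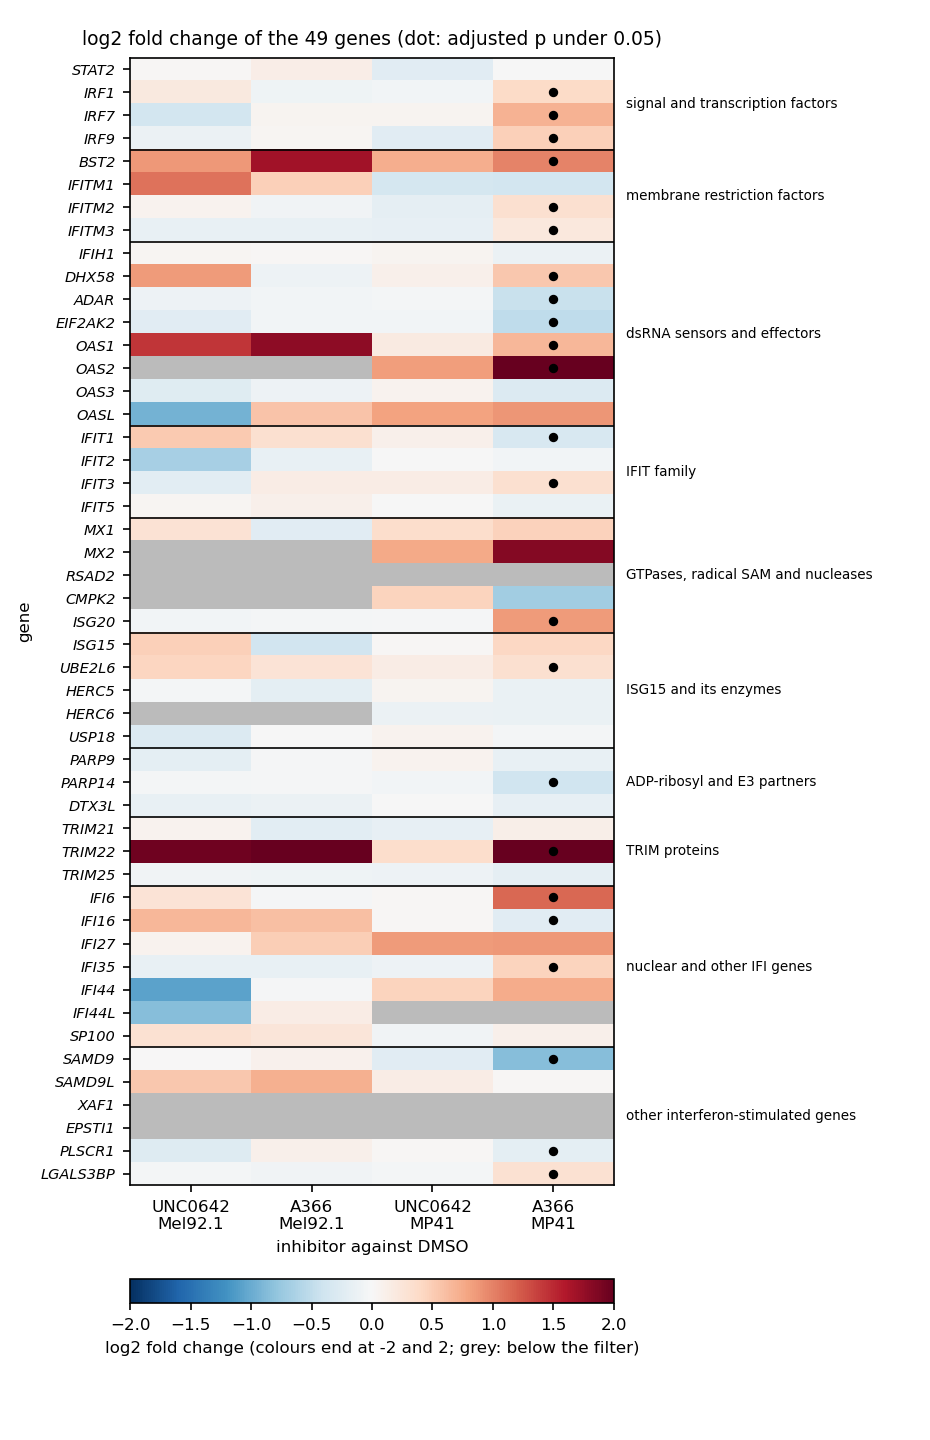
Log2 fold change (colour, ending at -2 and 2) of each of the 49 genes for each inhibitor against DMSO in each line, with genes in rows grouped by role, a dot for adjusted p under 0.05 and grey for genes below the filter on low counts. Dots stand in the A366 column of MP41 alone, on 23 genes, 16 in red and 7 in blue.

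The direction of the change after A366 in MP41 went with the length and GC content of the transcript, across the members and across all genes. The 16 members that rose had a median transcript length of 2228 bases and a median GC content of 55.8%, and the 7 that fell had 6852 bases and 39.6%. Over all genes the medians were 2413 bases and 56.2% for those that rose and 5419 bases and 42.1% for those that fell. The median log2 fold change passed from 0.38 in the shortest decile of genes (median 1082 bases) to -0.39 in the longest (median 9483 bases). The ribosomal share was also higher in the A366 libraries of MP41, at 5.93% to 11%, than in its DMSO libraries, at 3.31% to 5.10%. With the ribosomal genes left out of the edgeR fit, BST2 had a log2 fold change of 0.99 (adjusted p = 0.00821) in this comparison. That fit removes only the counts of these genes, and the part of the share in the result was not otherwise tested.

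When the GC content and length of the transcripts were fitted as an offset in each library, 34.4% of all genes and 11 members were called. The values were those of the longest annotated transcript of each gene, which need not be the one expressed (5634 bases for ISG20). Other choices of transcript were not tested. ADAR, IFI6, IFIT3, ISG20, OAS2, SAMD9 and TRIM22 kept their call and direction, 7 of the 23. Their log2 fold changes with the offset were 0.63 for IFI6 (adjusted p = 0.000322), 0.87 for ISG20 (adjusted p = 0.000923), 2.29 for OAS2 (adjusted p = 0.0029), 2.14 for TRIM22 (adjusted p = 0.00241), 0.35 for IFIT3 (adjusted p = 0.0127), -0.35 for SAMD9 (adjusted p = 0.00463) and -0.27 for ADAR (adjusted p = 0.00281). The direction turned for 8 members, EIF2AK2, IFI16, IFI35, IFITM2, IFITM3, LGALS3BP, PARP14 and UBE2L6, and IFITM3 was then called as lower (-0.30, adjusted p = 0.0109). Among those that kept their direction, IRF7 (0.14, adjusted p = 0.383), IRF9 (0.12, adjusted p = 0.58) and IFIT1 lost the call. IFITM1 (-0.79), SAMD9L (0.52) and SP100 (0.32) were called only with the offset.

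**Figure D4:**
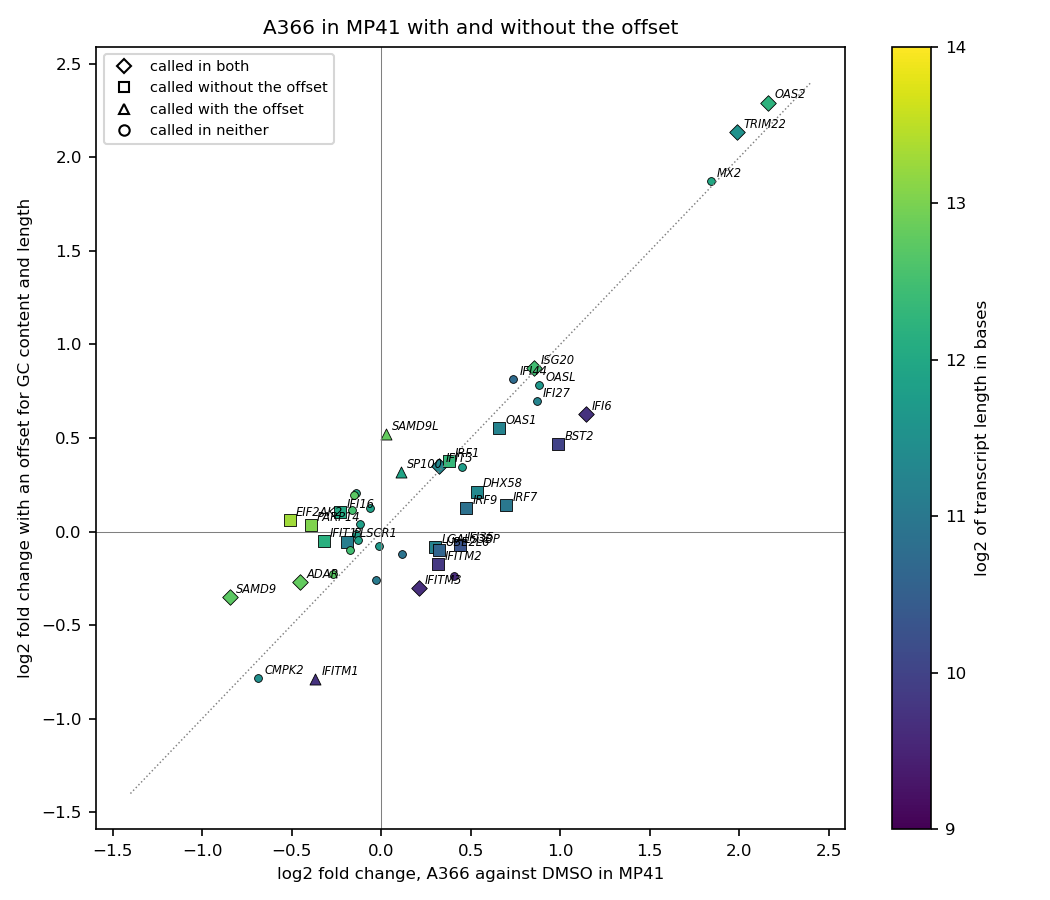
Log2 fold change of each tested member after A366 in MP41 under the GC and length offset (vertical) against the value without it (horizontal), coloured by log2 of the transcript length in bases, with marker shapes for where a gene was called and a dotted line of equal values. OAS2, TRIM22 and ISG20 stay near the line, whereas short transcripts such as IFI6 (1.14 to 0.63) and BST2 (0.99 to 0.47) lie below it and long ones such as SAMD9L (0.03 to 0.52) and EIF2AK2 (-0.51 to 0.06) above it.

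The placement of the 4 libraries also bore on this comparison. With the labels as deposited 32.8% of all genes and 10 members were called, of which 9 were among the 23 (ADAR, EIF2AK2, IFIT1, IFITM2, IFITM3, IRF1, PARP14, SAMD9 and UBE2L6) and IFI27 was the other, while DHX58, IFI35, IFIT3, IRF9, ISG20, LGALS3BP and OAS1 changed direction. In that arrangement each A366 group mixes the 2 lines. Without these libraries A366 replicate 1 is alone against DMSO, and the fit assumes that it varies like the DMSO and UNC0642 libraries. In this fit 35.7% of all genes and 14 members were called, all 14 among the 23, and no member of the 23 changed direction. The library is part of the main comparison too, so these values are not an independent check. IFI6 then had a log2 fold change of 1.16 (adjusted p = 6.82e-05), ISG20 0.82 (adjusted p = 0.00516) and SAMD9 -0.94 (adjusted p = 4.01e-05).

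The inhibitors were compared with each other at the same dose and time in each line. In Mel92.1, 0 of 42 members differed between A366 and UNC0642 by the edgeR quasi-likelihood test, against 0.165% of all genes, with 3 at an unadjusted p under 0.05. DHX58 had the lowest p (A366 minus UNC0642, -0.96, SE 0.22, adjusted p = 0.211). DESeq2 and limma voom each called 1 member. Neither their share of all genes nor that at an unadjusted p under 0.05 is given, so these counts are not a result about the members. In MP41, 22 of 45 members differed, 14 higher and 8 lower with A366, against 43.1% of all genes (21.1% higher, 22.0% lower), so the members again stood near the background. IFI6 was at 15.7, 16.3 and 12.7 CPM with UNC0642 (difference 1.12, 95% interval 0.79 to 1.44, adjusted p = 0.000279), ISG20 was at 5.73, 6.33 and 5.59 CPM (0.88, 0.57 to 1.19, adjusted p = 0.000761) and SAMD9 was at 30.4, 30.2 and 34.4 CPM (-0.62, -0.94 to -0.30, adjusted p = 0.00528). With UNC0642, IFI6 and ISG20 overlapped their DMSO values and SAMD9 lay below them. For BST2 the difference was 0.27 in MP41 (95% interval -0.28 to 0.81, adjusted p = 0.411) and 0.80 in Mel92.1 (-0.10 to 1.70, adjusted p = 0.709). It passed no threshold, and the intervals include both no difference and an appreciable one.

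Whether the lines responded differently was tested by an interaction term (Mel92.1 response less MP41 response) over 15799 genes. For UNC0642 0 of 46 members passed by the edgeR quasi-likelihood test, against 0.601% of all genes, with 6 at an unadjusted p under 0.05. DESeq2 and limma voom called 2 each. Neither their share of all genes nor that at an unadjusted p under 0.05 is given, so these counts are not a result about the members. IFI16 came nearest (0.63, SE 0.15, adjusted p = 0.0718). For A366 5 members passed, against 13.8% of all genes, and these were IFI6 (-1.19), IFI35 (-0.62), LGALS3BP (-0.40), IFI16 (0.81) and SAMD9 (0.90). In MP41 IFI16 was at 156, 151 and 154 CPM with DMSO and 130, 139 and 123 CPM with A366, a fall, whereas in Mel92.1 all its A366 libraries were above DMSO. For BST2 the interaction was 0.66 for A366 (95% interval -0.34 to 1.66, adjusted p = 0.375) and 0.17 for UNC0642 (-0.84 to 1.18, adjusted p = 0.958), so no difference between the lines was shown.

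The other genes of the interferon pathway were examined in a list of 68 that holds no member of the group. The 8 interferon genes had few counts or none. IFNG, IFNL1 and IFNL2 were at 0 in all 18 libraries, and the highest count of any of the 8 was 15 (IFNE, in MP41 UNC0642 replicate 1). In Mel92.1 0 of 46 listed genes were called by the edgeR quasi-likelihood test for UNC0642 and 0 for A366, with 2 and 1 at an unadjusted p under 0.05. The share of all genes at that unadjusted threshold is not given, so the 2 and 1 are not a result about the list.

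In MP41 1 of 51 was called for UNC0642. This was WARS, a tryptophan-tRNA ligase, which fell from 380, 354 and 378 CPM to 292, 255 and 288 CPM (log2 fold change -0.41, SE 0.06, adjusted p = 0.0235). With A366 WARS was at 494, 508 and 496 CPM and rose (0.43, SE 0.06, adjusted p = 0.000576), so the 2 inhibitors gave opposite directions, with a difference of 0.84 (SE 0.06, adjusted p = 8.05e-06) between them. The call for UNC0642 was lost when 1 of 7 libraries was left out in turn (each DMSO and UNC0642 library of MP41 and MP41 A366 replicate 1, adjusted p 0.0703 to 0.163). After A366, 20 of the 51 were called, 8 up and 12 down, a share of 39.2% below the background of 46.0%. The receptor IFNAR1 (-0.34) and the kinases JAK1 (-0.39), JAK2 (-0.44) and TBK1 (-0.41) fell, as did the sensor TLR3 (-0.80), while IRF3 (0.59), the adaptor TMEM173 (STING, 0.37) and SOCS1 (0.75) rose. Of the brakes on the pathway, SOCS1 thus rose while PIAS1 (-0.48) and PTPN2 (-0.22) fell. The further targets divided evenly, with BATF2, C19orf66, PARP10, RTP4 and WARS up and NT5C3A, PNPT1, TDRD7, ZC3HAV1 and ZNFX1 down. BISPR, whose exons cover the BST2 match, was at 0.261, 0.127 and 0.118 CPM with DMSO and 0.166, 0.218 and 0.555 CPM with A366 in MP41 and was not called (0.86, SE 0.74).

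The genes whose pattern was most like that of BST2 were not interferon-stimulated genes of this group. Over the 18 libraries, after the mean of each line's DMSO libraries was taken out, Pearson's r with BST2 was 0.94 for CSRP2, 0.89 for GPSM3, 0.87 for FCGR2A and 0.84 for both PLEKHB1 and the noncoding RNA BANCR, out of 11910 genes. The libraries share their treatment, and the points share depth and the DMSO centring, so these values are a description. CSRP2, a LIM-domain protein, was at 18.7 ± 0.866, 22.3 ± 4.58 and 27.7 ± 2.87 CPM in Mel92.1 after DMSO, UNC0642 and A366 and at 138 ± 12.1, 166 ± 22.8 and 179 ± 21.6 CPM in MP41 (SD, n = 3). BANCR was at 0.614 ± 0.213, 2.59 ± 0.597 and 8.88 ± 0.713 CPM in Mel92.1 and at 8.90 ± 1.58, 14.5 ± 1.14 and 31.3 ± 3.63 CPM in MP41. Both had their lowest mean with DMSO and the highest with A366, as BST2 had, which their choice by r with BST2 favours. BANCR, like BST2, was among the genes the study picked from these libraries. The member nearest to BST2 was UBE2L6, with r of 0.55 at rank 261.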

How the data were processed

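RNA-seq was measured in 18 libraries. The authors deposited expected counts per gene, made with RSEM 1.2.15 and Bowtie2 2.1.0 on hg38 per the submitters' processing notes, not normalized for library size. The methods of the study name another route (TopHat, Cufflinks and the mm10 build), which these values do not follow. Expected counts were first rounded to integers. In each line 9 libraries were fitted with edgeR 4.0.16 in R 4.3.3 (filterByExpr, TMM, glmQLFit, glmQLFTest, Benjamini-Hochberg over all genes tested, threshold 0.05), and the interactions and the difference between lines came from a fit of all 18. CPM are scaled by TMM within a line, or over 18 libraries where lines are compared. Replicates are those of the labels. The series text calls them biological without saying whether they were separate cultures, so p-values measure only the spread between these libraries. No 2 libraries of the 153 pairs were identical. Whether equal replicate numbers mark paired samples was not settled, since 3 replicates a group are too few to exclude it. Of 18 same-numbered pairs of groups within a line, 2 deviated together with r over 0.1 (range -0.41 to 0.52). GC content and length were those of the longest transcript of each symbol in GENCODE 29 (GRCh38). They were found for 23899 symbols directly and 715 through another symbol, and 1861 were not found. Among genes tested in MP41, 96.7% had a value, as did all 49 members. Promoter windows came from RefSeq. The edgeR, DESeq2 and limma scripts were tested on simulated data.

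The members and lists were chosen with earlier results of these data known. Genes named with library values were BST2, the 4 signalling factors and the IFITM and IFIT families. So were the 6 members with the lowest p in each comparison with DMSO, for that comparison. The 3 highest and lowest per length in each line were named with a level per length or a count. The 5 genes most like BST2, with a mean of 1 CPM or more in both lines, were named with r. CSRP2 and BANCR were also given with group means. Other genes were named after their values were seen. Alternatives were DESeq2 1.42.0, RLE factors, no composition factor, no filter, a 1 CPM mean as the filter, replicate number as a block, offsets for GC content and length, limma 3.58.1 (voom with sample weights), fits of 6 or all 18 libraries, a fold change of at least 1.5, ribosomal genes left out, the labels as deposited, leaving out the 4 relabelled libraries, and each library left out in turn. Tables and plots used Python 3.11.15 (pandas 2.3.3, numpy 2.4.6, matplotlib 3.10.9). Of the columns that hold a library, 0 were left out.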

Additional observations from a re-analysis of the deposited data

Results flagged for a closer look

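For 5 members the response to A366 differed between the lines by a test of the difference itself (interaction in edgeR's quasi-likelihood fit of 18 libraries, Mel92.1 minus MP41, log2). They were IFI6 (-1.19, adjusted p = 0.00292), IFI16 (0.81, adjusted p = 0.0036), LGALS3BP (-0.40, adjusted p = 0.0131), SAMD9 (0.90, adjusted p = 0.0233) and IFI35 (-0.62, adjusted p = 0.0317). The groups hold 3 libraries each, few for judging a single outlying library, so each library was also left out in turn. With the labels as deposited, IFI6 had a difference of -0.08 (adjusted p = 0.866), IFI35 of 2.19 (adjusted p = 0.0347) and LGALS3BP of 0.40 (adjusted p = 0.163). Under the GC and length offset IFI16 was at 0.46 (adjusted p = 0.141), SAMD9 at 0.41 (adjusted p = 0.133), IFI35 at -0.09 (adjusted p = 0.664) and LGALS3BP at 0.04 (adjusted p = 0.82), so these 4 were then not called. Leaving out 1 of the 18 libraries in turn ended the call of both IFI35 (adjusted p up to 0.122) and SAMD9 (up to 0.0746) in the same 8 cases. These were Mel92.1 DMSO replicates 2 and 3, Mel92.1 A366 replicates 1 and 2, MP41 DMSO replicates 1 and 3 and MP41 A366 replicates 1 and 3, with relabelled libraries named here by the line they were placed in. LGALS3BP lost its call without Mel92.1 DMSO replicate 3, Mel92.1 A366 replicate 2 or MP41 A366 replicate 3 (up to 0.0572). IFI6 and IFI16 kept theirs in all 18. The cause of these shifts was not tested.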

How the results depend on the processing

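Members called were counted again under each alternative. For most alternatives the share of all genes called is not given, so a change in the count is not a result about the members. For A366 against DMSO in MP41 the 23 became 10 with the labels as deposited, 14 without the 4 relabelled libraries, 11 under the GC and length offset, 12 with that offset and the replicate block, 13 with all 18 libraries in 1 fit and 8 at a fold change of at least 1.5. Leaving out 1 library gave 14 (without MP41 A366 replicate 1) to 26, with 15 without MP41 DMSO replicate 2. For A366 against UNC0642 in MP41 the 22 became 10, 9, 7 and 7 (labels as deposited, offset, offset with block, fold change) and 16 to 24 without 1 library. In Mel92.1 the 0 became, for UNC0642 against DMSO, 4 with DESeq2, 1 with the offset, 2 with voom and 4 with 18 libraries (0 to 1 without 1 library); for A366, 2 with DESeq2, 6 libraries or 18, and 17 with voom (0 to 2, the 2 without Mel92.1 UNC0642 replicate 1); and for A366 against UNC0642, 1 with DESeq2 or voom (0 to 0). UNC0642 in MP41 stayed at 0 to 0. The line difference for UNC0642 gave 2 with DESeq2 or voom (0 to 1). That for A366 (5) became 21, 1, 8, 3, 1, 1 and 29 (labels as deposited, without the 4 libraries, DESeq2, no composition factor, offset, offset with block, voom) and 2 to 10 without 1 library. Between lines with DMSO it was 30 to 36.

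With the replicate block alone, 22 members were called for A366 in MP41 (IRF1 lost its call), and the pairing changed no count by over 1.5 times, though WARS for UNC0642 in MP41 lost its call (adjusted p = 0.0748).

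Log2 values turned sign with the labels as deposited for A366 in MP41: DHX58 -0.42, IFI35 -0.59, IFIT3 -0.22, IRF9 -0.21, ISG20 -0.12, LGALS3BP -0.0381, OAS1 -0.73 and WARS -0.65. So did UBE2L6 in Mel92.1 (-0.13), STAT2 between inhibitors in MP41 (-0.19), and the line difference of IFI35 (2.19) and LGALS3BP (0.40). With the offset, and with offset and block, the A366 values in MP41 were EIF2AK2 0.0614 and 0.0627, IFI16 0.11 and 0.11, IFI35 -0.0733 and -0.0736, IFITM2 -0.17 and -0.17, IFITM3 -0.30 and -0.30, LGALS3BP -0.0833 and -0.0838, PARP14 0.0336 and 0.0332, and UBE2L6 -0.10 and -0.10. BST2 between inhibitors in MP41 was -0.22 and -0.20, the line difference of LGALS3BP 0.0438 and 0.0434, and the DMSO difference between lines -0.11 and -0.12 for IFITM3 and 0.14 and 0.14 for PARP14. The line difference of BST2 for UNC0642 ranged from -0.18 (without Mel92.1 UNC0642 replicate 2) to 0.45 without 1 library, and was -0.0061 without MP41 DMSO replicate 1. The cause of these shifts was not tested.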
